A study of Mus musculus with 6 samples.

Results

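The replication-dependent histone genes of mouse were described in CUT&RUN peak lists for H3K4me3 and for HA-tagged ASH2L. They were taken as the protein-coding genes of GENCODE vM21 whose symbols begin with Hist1h, Hist2h, Hist3h or Hist4h, which gave 67 of 21951 protein-coding genes. A gene was counted with a peak when the peak overlapped it by at least 1 bp anywhere from 1000 bp upstream of its start to its end. By type there were 6 linker histone H1 genes, 18 H2A genes, 18 H2B genes, 12 H3 genes and 13 H4 genes. By cluster, 54 belonged to Hist1 on chromosome 13, 10 to Hist2 on chromosome 3, 2 to Hist3 on chromosome 11 and 1 to Hist4 on chromosome 6. Coordinates are those of GRCm38, the assembly also called mm10.

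In CUT&RUN, protein A-MNase is tethered by an antibody to chromatin inside permeabilized cells, and fragments cut free by the nuclease are sequenced. The study profiled E14 cells, an embryonic stem cell line of mouse grown in serum with LIF, in 6 samples that form 3 groups of 2 biological duplicates. These were parental E14 cells with anti-HA, HA-ASH2L E14 cells with anti-HA and HA-ASH2L E14 cells with anti-H3K4me3, and all 3 groups received doxycycline for 48 h. The HA-ASH2L cells carry a doxycycline-inducible HA-ASH2L transgene and were obtained by picking single colonies according to the methods, which do not say how many were used, and the sample labels name their genotype a knock-in. The labels give 1000000 cells for anti-HA and 100000 for anti-H3K4me3. The methods do not make this distinction between antibodies, so that the cell number for H3K4me3 is uncertain. Anti-HA values of the parental cells were not used here. Since the peaks were called on pooled duplicates, every value is 1 value of a merged library, no spread between duplicates can be given and no difference was tested.

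Histone proteins H2A, H2B, H3 and H4 form the octamer around which DNA is wrapped, and H1 binds the DNA that enters and leaves it. Most of the genes that supply these proteins during S phase lie in clusters, lack introns and are transcribed together at the histone locus body, a nuclear body organized by NPAT. Their mRNAs end in a conserved stem-loop bound by SLBP in place of a poly(A) tail. H3K4me3 marks the start sites of active and poised genes, and ASH2L is a shared core subunit of the MLL/SET1 methyltransferases that place this mark.

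The stem-loop served to check the symbols against the sequence. The letters of its consensus were searched on the sense strand from the gene start to 200 bp past the annotated end, and 65 of 67 histone genes (97.0%) had a match, against 5 of 1543 other protein-coding genes of at most 2000 bp (0.324%). Hist1h2an and Hist2h2be had none in that window. The 3 most frequent forms are printed here with both arms of the stem in capitals and the loop in lower case. They were found in 41, 9 and 8 genes, in that order, and 5 further forms accounted for the other 7 genes.
Form with a tttc loop: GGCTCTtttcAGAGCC
Form with a ttta loop: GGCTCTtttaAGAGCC
Form with another stem: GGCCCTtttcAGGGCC

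The H3K4me3 list held 59927 peaks called on 27328071 tags, and the ASH2L list held 2464 peaks called on 25677963 tags. H3K4me3 peaks covered 4.11% of the genome and ASH2L peaks 0.0700%. As a check of the cell type, an H3K4me3 peak was present at 4 of 8 embryonic stem cell genes, and it lay over the start site at Klf4, Tfcp2l1 and Zfp42. Esrrb had peaks only away from its start, and Pou5f1, Sox2, Nanog and Dppa5a had none. Of 5 fibroblast genes that would mark feeder cells, 3 had a peak, and Thy1 alone had it over the start site. Peaks thus did not separate the marker lists of these cell types, and a gene without a peak is not read here as a gene without H3K4me3.

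H3K4me3 peaks were found at 49 of 67 histone genes (73.1%, 95% Wilson interval 61.5% to 82.3%, which covers counting error only). Over all protein-coding genes the share was 74.5%, so the histone genes stood close to the background in this count. With only peaks at or above the list's median fold enrichment, 5 of the 67 (7.46%) had a peak, against 49% of all protein-coding genes and 13.7% of the 1543 others of at most 2000 bp. With only peaks of score 100 or more, 33 of the 67 (49.3%) did, against 71.8% of all and 28.7% of the short genes. Most histone genes are short, with a median length of 539 bp, whereas a long gene can collect a peak anywhere in its body. In a fixed window that took in 1000 bp before each start and 500 bp after it, 49 of 67 histone genes (73.1%) had a peak, against 64.4% of all protein-coding genes and 30.1% of the 1543 other genes of at most 2000 bp (27.9% to 32.5%). This window left out Hist1h1d and took in Hist1h4n. The start site itself lay inside a peak at 46 histone genes (68.7%), against 62.5% of all protein-coding genes and 27.4% of the other short genes. By type, a peak was found at 5 of 6 H1 genes, 13 of 18 H2A genes, 13 of 18 H2B genes, 10 of 12 H3 genes and 8 of 13 H4 genes. By cluster the counts were 37 of 54 in Hist1, 9 of 10 in Hist2, 2 of 2 in Hist3 and 1 of 1 in Hist4.

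The genes lie in stretches separated by gaps of over 100000 bp. On chromosome 13, the stretch from Hist1h2bl to Hist1h2br (121768 bp) had a peak at 9 of 18 genes, and peaks covered 20.8% of it. The stretch from Hist1h2ah to Hist1h2bj (8513 bp) had a peak at all 5 genes and was covered to 87.2%. From Hist1h4h to Hist1h1a (233357 bp), 21 of 29 genes had a peak and 22.2% was covered. The testis genes Hist1h2ba and Hist1h2aa lay in a single peak of their own that covered all 1079 bp between their ends. The Hist2 stretch on chromosome 3 (50268 bp) was covered to 46.2%, and the Hist3 stretch (7911 bp) to 61.8%. All 7 stretches were covered above the 4.11% of the genome, but that share counts sequence far from genes. Within 5000 bp on either side of the start, peaks covered a median of 2339 bp over all protein-coding genes and 4509 bp over the histone genes. No stretch other than that of Hist4h4 held an ASH2L peak.

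**Figure D1:**
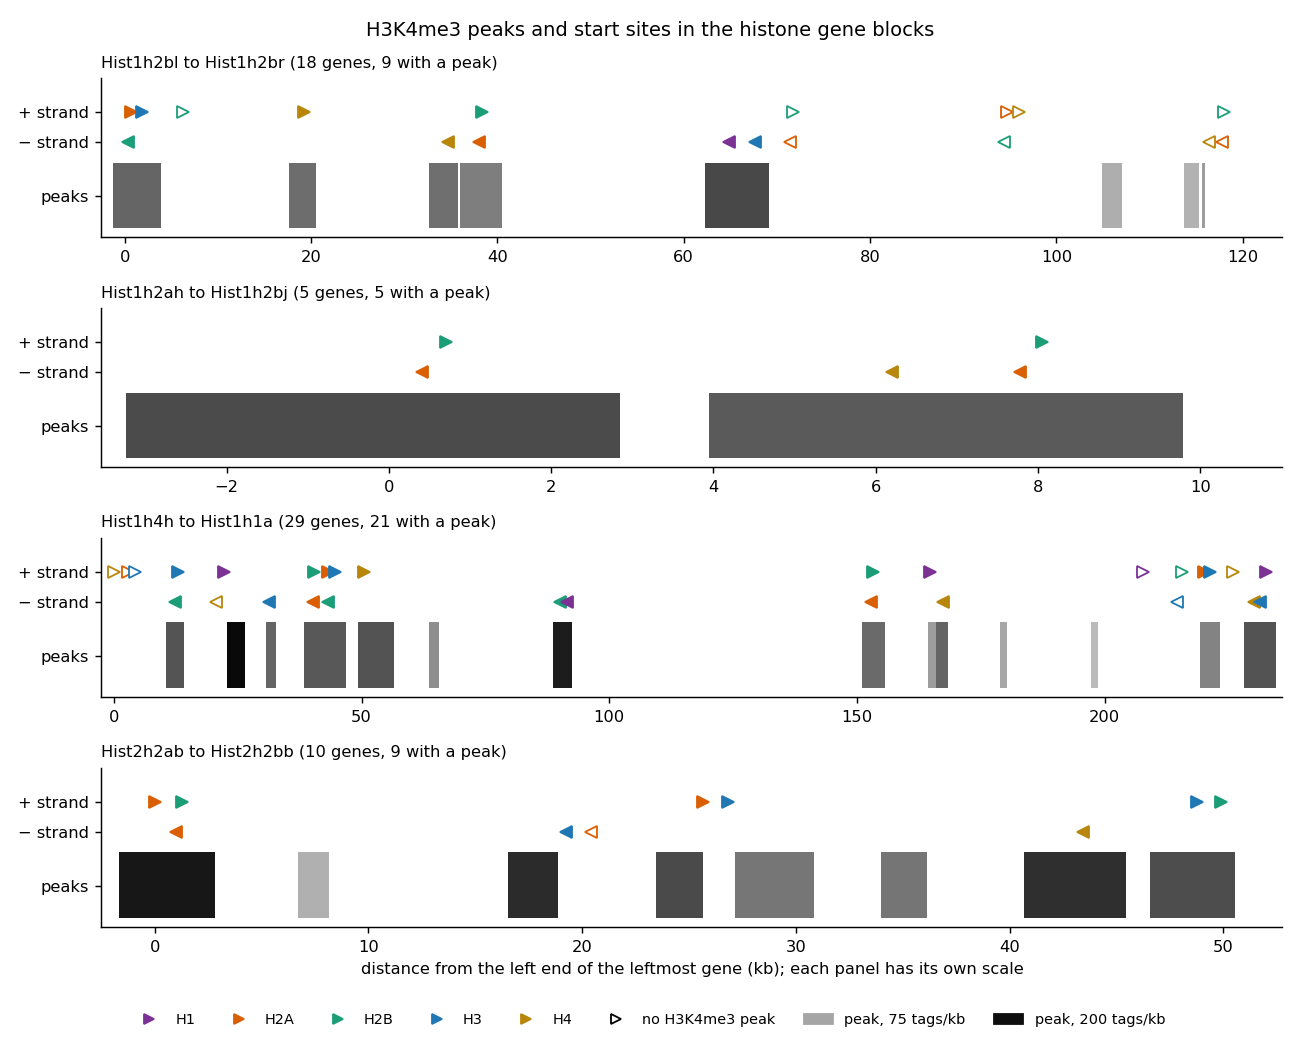
H3K4me3 peaks (bars, darker with more tags per 1000 bp) and start sites of histone genes (triangles pointing in the direction of transcription, coloured by type, open where the gene had no peak) in the 4 stretches with 5 or more genes, against the distance in kb from the left end of the leftmost gene. In the top stretch, all but 1 of the 9 genes without a peak lie to the right of the last peak that holds histone genes, and both peaks of the Hist1h2ah stretch hold several genes.

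Histone genes shared peaks, more so in the list as deposited than in stricter lists. The 49 genes with a peak were overlapped by 29 distinct peaks, of which 14 held 1 histone gene, 10 held 2, 4 held 3 and 1 held 5. Of the 49 genes, 36 shared a peak with another histone gene, and 17 lay in peaks with 3 or more. With only peaks at or above the list's median fold enrichment, 1 peak was shared, by 2 genes, and at a score of 100 or more a peak held at most 3. In the whole list, 3325 of the 37797 peaks at protein-coding genes reached 2 or more genes and 335 reached 3 or more, and the peaks at histone genes accounted for 16 and 5 of these, counting every protein-coding gene. No protein-coding gene outside the family lay in the peaks of 45 of the 49 genes.

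The peak with most histone genes spanned chr13:23569368-23577976 and held Hist1h2ae, Hist1h2bg, Hist1h2bf, Hist1h2ad and Hist1h3d. At 8609 bp it was the widest of all 59927 H3K4me3 peaks, and it held 1240 tags, or 144 tags per 1000 bp. Its deposited fold enrichment, that is, summit tags over the modelled background, was 2.42, and only 5 peaks of the list had a lower one. Its score, which is 10 times −log10 of the peak caller's p-value and equals 50 at the cutoff, was 54.56.

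Peaks with 3 histone genes were found at 4 places. On chromosome 13 they held Hist1h4a, Hist1h3a and Hist1h1a (chr13:23759112-23765635, 968 tags over 6524 bp, fold enrichment 3.17), Hist1h4i, Hist1h2ag and Hist1h2bj (chr13:22039104-22044946, 834 tags over 5843 bp, 2.59) and Hist1h2bl, Hist1h2ai and Hist1h3h (chr13:21714514-21719617, 674 tags over 5104 bp, 2.86). On chromosome 3 the peak chr3:96218169-96222677 held Hist2h2ab, Hist2h2ac and Hist2h2be with 870 tags over 4509 bp, a fold enrichment of 4.10 and a score of 700.07. That score was the highest of the 5 peaks with 3 or more histone genes. Neighbouring peaks could also lie close together, with gaps of 55 bp between the peaks of Hist1h1t and Hist1h4c, 264 bp between those of Hist1h4k and Hist1h2ak and 1093 bp between those of Hist1h2ah and Hist1h4i. Whether such neighbours are 1 domain or several depends on where the peak caller ended them.

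Peaks at histone genes were wide and had low fold enrichments, while their tag density was close to that at other start sites. Their median width was 3709 bp (1550 to 8609 bp), against 2856 bp for 12300 peaks over start sites of other protein-coding genes and 1453 bp for the whole list. They held a median of 148 tags per 1000 bp (74.2 to 204), close to the 153 at other start sites and above the 76.4 of the whole list. Their median fold enrichment was 3.80 (2.42 to 9.04), against 6.50 at other start sites and 6.46 in the whole list. All 29 were wider than the list median, 28 had more tags per 1000 bp and 25 (86.2%) had a lower fold enrichment. Among the 10% of the list with the lowest fold enrichments stood 18 of 29 (62.1%), against 1370 of 12300 peaks at other start sites (11.1%). Among the widest 10% stood 17 of 29 (58.6%), against 3673 of the 12300 (29.9%).

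The median score was 317.60 at histone genes, 628.83 at other start sites and 197.93 in the whole list. A score under 100 was held by 8 of 29 peaks at histone genes (27.6%), by 3.48% of those at other start sites and by 25.3% of the whole list. From narrow to wide, 5 classes of width held 3, 15, 6, 4 and 1 peaks at histone genes. The median fold enrichment at histone genes was below that of the list in each class, and the median score in 4. The widest class holds only the peak with 5 histone genes, so its median is that of 1 peak. In the class under 2000 bp, the median score was 173.01 for 3 peaks at histone genes and 138.88 for the list. Of peaks of 4000 bp or more, the 11 at histone genes had a median fold enrichment of 3.39 and a median score of 171.28, against 4.44 and 414.29 for 2678 peaks over other start sites. The median widths in this class were 5843 bp and 5026 bp. Between 2000 and 4000 bp, the median fold enrichment was 4.78 for 15 peaks at histone genes and 6.17 for the 15579 peaks of the list. Width and fold enrichment were inversely related across the 29 peaks (Pearson r −0.53, Spearman rho −0.56) and across the 12300 (r −0.67, rho −0.73), as a description of peaks of 1 library. Medians of width and fold enrichment were 2575 bp and 3.97 for peaks with 1 histone gene, 4243 bp and 3.90 for those with 2, and 5843 bp and 2.86 for those with 3 or more. Their median tag densities were 141, 148 and 144 tags per 1000 bp, in the same order. Since a peak with several genes has to span them, the widths depend in part on this grouping.

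The peak caller took its background from the same library, within up to 10000 bp around a peak, and no control library was used. Histone genes with a peak had a median of 5649 bp of H3K4me3 peak within 5000 bp on either side of their start (1550 to 8609 bp), against 2924 bp for all protein-coding genes with a peak. The part of this in the low fold enrichments was not tested.

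**Figure D2:**
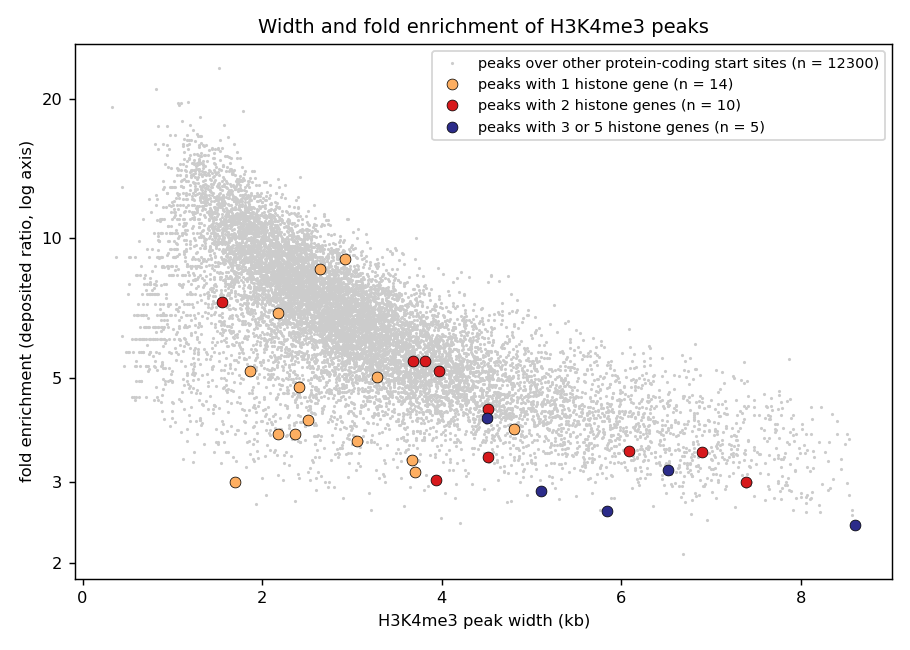
Fold enrichment (deposited ratio, log axis) against width in kb of H3K4me3 peaks, with 12300 peaks over start sites of other protein-coding genes in grey and the 29 peaks at histone genes coloured by the number of histone genes they hold. Most coloured points lie at or below the lower part of the grey cloud at their width, and the peak with 5 histone genes is the rightmost of the plot.

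Relative to the start site, the peaks of histone genes reached farther upstream than those of other genes. For the 46 genes with the start inside a peak, the peak extended a median of 2112 bp upstream and 2032 bp downstream, against 1079 and 1712 bp for 13675 other genes and 1047 and 1572 bp for the 423 of these of at most 2000 bp. It ran past the end of the gene at 37 of the 46 and at 278 of the 423 short genes, a count that gene length largely sets. The summit lay within 500 bp of the start at 27 of the 46, at 11025 of the 13675 and at 313 of the 423. The 10 histone genes that were alone in their peak had 1202 bp upstream and 1458 bp downstream, and the summit was within 500 bp of the start at 9 of them. The median reach was thus shorter on both sides for genes alone in their peak. The grouping sets this in part, since a peak with several genes has to span them.

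**Figure D3:**
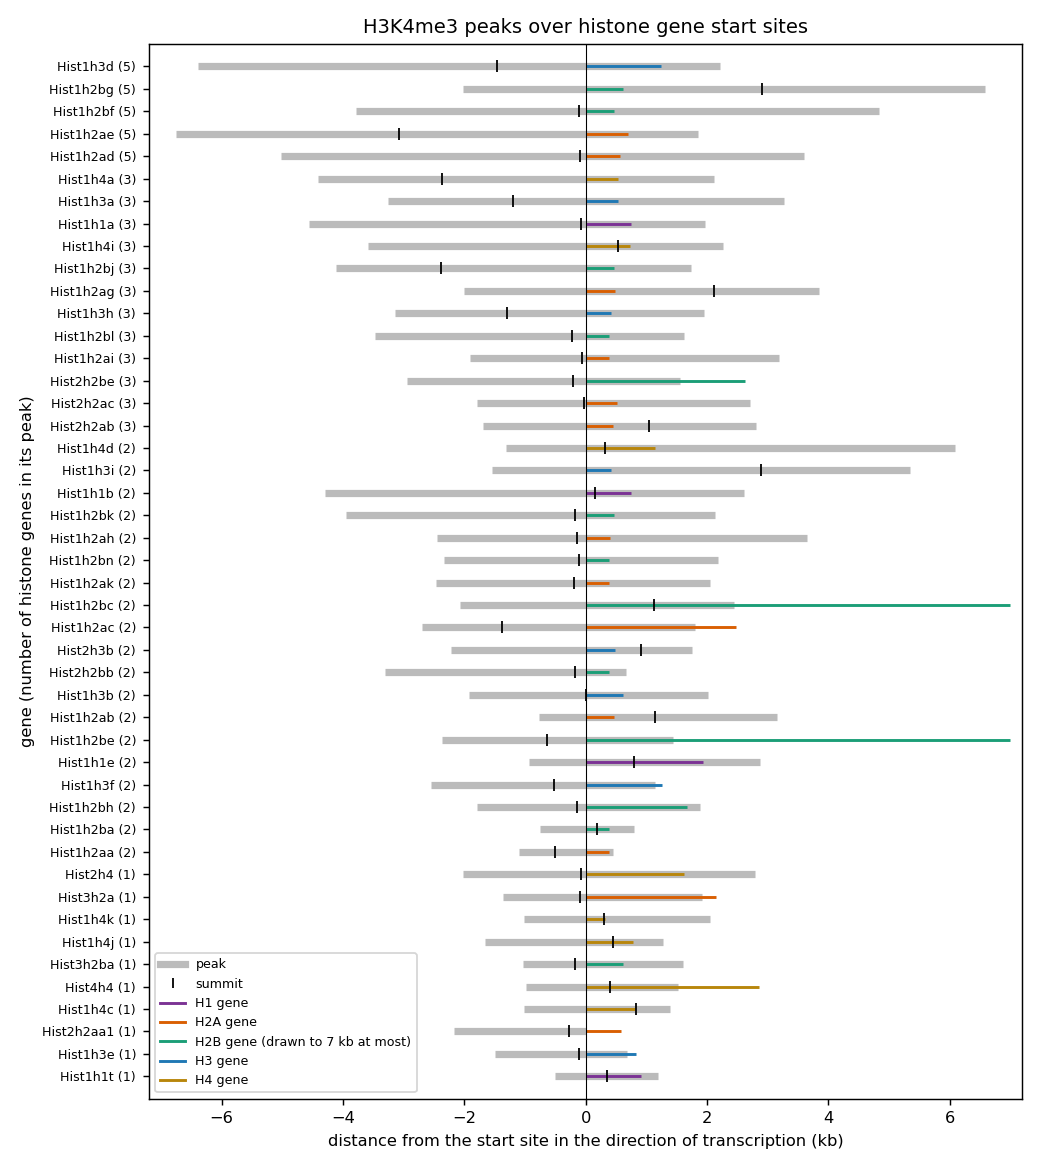
H3K4me3 peaks (grey bars) with their summits (black ticks) over the 46 histone genes whose start lies in a peak, aligned at the start site and drawn in the direction of transcription in kb, with the gene itself as a coloured line and the number of histone genes in its peak in parentheses. Peaks with 3 or 5 genes reach far past the start on at least 1 side, and the peaks of single genes are centred nearer to it.

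The H1 genes encode linker histones. Hist1h1b shared the peak chr13:21778018-21784914 with Hist1h3i (1076 tags over 6897 bp, fold enrichment 3.47), Hist1h1a lay in the peak with Hist1h4a and Hist1h3a, and Hist1h1e had 718 tags over 3810 bp with the highest score of the family, 905.90. Hist1h1d had the highest tag density of all the genes, 204 tags per 1000 bp over chr13:23553923-23557588. This peak began 661 bp downstream of the start of the annotated 7425 bp record and lay over the coding sequence. Hist1h1t, the testis linker histone, had a peak of 1696 bp with 140 tags, 82.5 tags per 1000 bp and a score of 53.64, the lowest density of the H1 genes. Hist1h1c had no peak, the nearest was 9081 bp from its start, and 97.0% of its window was unique sequence.

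H2A and H2B genes are mostly arranged head to head, with a short spacer that serves both start sites. Of 13 divergent pairs with spacers of 175 to 659 bp, 12 joined an H2A to an H2B gene and 1 joined Hist1h2bh to Hist1h3f. In 10 pairs both starts lay in the same peak, over 9 distinct peaks since Hist1h2ae with Hist1h2bg and Hist1h2bf with Hist1h2ad were in the same one. In the other 3 pairs neither start lay in a peak, and no pair was split. The summit lay between the starts in 6 of the 10. Spacers of 4 of the 10 pairs with a peak are shown, the first and second from the widest peak, the next from a Hist1 peak with 574 tags over 4513 bp and a fold enrichment of 4.30, and the last from the Hist2 peak with 193 tags per 1000 bp. Sequences run 5′ to 3′ on the plus strand, from the start of the gene on the minus strand, named first, to that of the gene on the plus strand. Capitals mark TATAAA (the TATA box), CCAAT (the CCAAT box) and ATTTGCAT (the octamer motif) on either strand.
Hist1h2ae and Hist1h2bg, chr13:23571221-23571395: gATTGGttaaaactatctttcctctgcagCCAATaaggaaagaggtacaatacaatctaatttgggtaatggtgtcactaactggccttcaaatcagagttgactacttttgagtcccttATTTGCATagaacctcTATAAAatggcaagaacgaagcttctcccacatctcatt
Hist1h2bf and Hist1h2ad, chr13:23574197-23574380: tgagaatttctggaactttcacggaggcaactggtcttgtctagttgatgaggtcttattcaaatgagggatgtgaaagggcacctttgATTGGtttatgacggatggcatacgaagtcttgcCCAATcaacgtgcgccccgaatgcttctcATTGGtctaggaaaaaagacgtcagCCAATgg
Hist1h2ac and Hist1h2bc, chr13:23683949-23684198: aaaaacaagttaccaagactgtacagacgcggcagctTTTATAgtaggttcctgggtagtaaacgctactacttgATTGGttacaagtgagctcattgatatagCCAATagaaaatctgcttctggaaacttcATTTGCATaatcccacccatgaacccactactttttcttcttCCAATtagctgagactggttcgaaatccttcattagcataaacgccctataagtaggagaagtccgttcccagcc
Hist2h2ac and Hist2h2be, chr3:96220881-96221118: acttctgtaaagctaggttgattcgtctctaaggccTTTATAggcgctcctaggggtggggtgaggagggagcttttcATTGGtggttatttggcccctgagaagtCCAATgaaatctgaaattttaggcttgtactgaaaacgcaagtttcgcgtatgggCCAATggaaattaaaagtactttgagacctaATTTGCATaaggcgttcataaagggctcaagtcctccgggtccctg

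The octamer motif, which is bound by POU2F1, was in the spacer of 5 of the 10 pairs with a peak, TATAAA in that of 7 and CCAAT in that of all 10, with 2 to 5 matches. Of the 2 spacers of the widest peak, that of Hist1h2bf and Hist1h2ad held no octamer motif. It also held no TATAAA between the annotated starts, although the promoters of both genes, which run 50 bp past the start, did hold a match. Tag density of the H2A genes ranged from 74.2 tags per 1000 bp at Hist1h2aa to 193 at Hist2h2ab and Hist2h2ac, with a median of 144. The H2B genes ranged from 74.2 at Hist1h2ba to 193 at Hist2h2be, also with a median of 144. Both ends of these ranges are peaks that an H2A and an H2B gene share. Hist1h2ba and Hist1h2aa, whose products are the testis H2B and H2A, had the lowest density and the narrowest peak of the family, with 115 tags over 1550 bp at chr13:23933361-23934910. The fold enrichment of that peak, 7.29, was nevertheless the third highest. Hist1h2be was the only gene with more than 1 peak. Its annotated record of 37455 bp starts beside Hist1h1e and ends beside Hist1h4d, so 2 of its 3 peaks are those of these genes, and its coding sequence lay in the peak of Hist1h4d (1096 tags over 7392 bp, fold enrichment 2.99). The third peak, with 176 tags over 1865 bp, lay between them.

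H3 genes encode the protein that carries the mark. Their tag density ranged from 104 tags per 1000 bp at Hist1h3b, which shared a peak with Hist1h2ab (410 tags over 3936 bp, fold enrichment 3.03), to 177 at Hist2h3c2, with a median of 146. Hist1h3e was alone in a peak of 2172 bp with 286 tags and a fold enrichment of 6.90, whereas Hist1h3d lay in the widest peak with 2.42. The H4 genes, which had no divergent partner, ranged from 122 tags per 1000 bp at Hist1h4k to 176 at Hist4h4, with the same median of 146. Hist1h4j had the highest fold enrichment of the family, 9.04, in a peak of 2929 bp with 364 tags that held no other histone gene. Medians of the 5 types lay between 144 and 156 tags per 1000 bp, inside the range of each type, so that no order of types can be drawn from them.

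**Figure D4:**
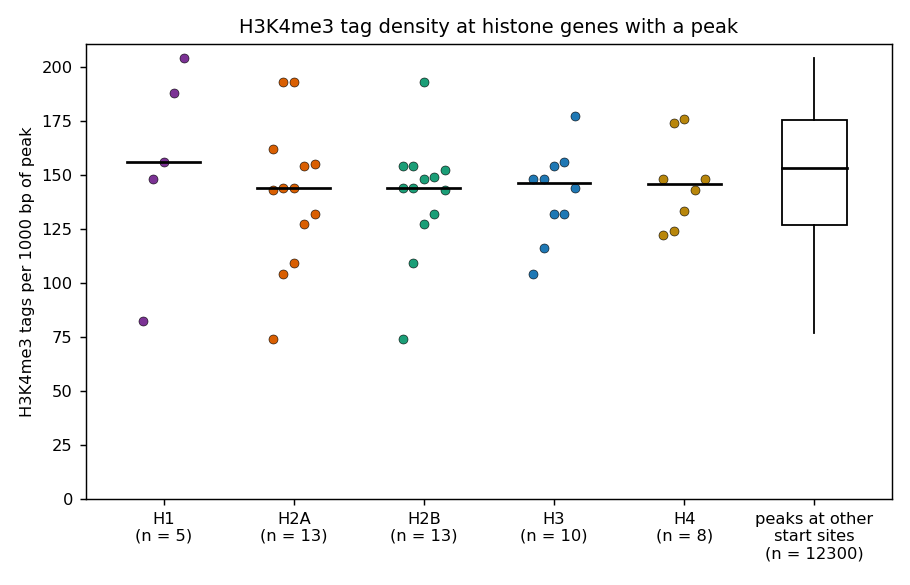
H3K4me3 tags per 1000 bp of peak at histone genes with a peak, by type (points, genes in a shared peak repeat its value except Hist1h2be, lines mark medians), beside peaks over start sites of other protein-coding genes (box, 25th to 75th percentile from 127 to 175 with the median of 153, whiskers from the 5th to the 95th percentile). The point of Hist1h2be, at 152, pools its 3 peaks. The types overlap throughout, and the lowest points are Hist1h1t at 82.5 and the pair Hist1h2aa and Hist1h2ba at 74.2.

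In the Hist2 cluster, 7 of 10 start sites lay in a peak. Hist2h4 had 836 tags over 4812 bp (174 tags per 1000 bp), Hist2h3b and Hist2h2bb shared 610 tags over 3973 bp, and Hist2h2aa1 had 337 tags over 2173 bp. Hist2h3c2 and Hist2h3c1 had peaks that began 382 and 325 bp from their starts, with 418 tags over 2366 bp and 431 tags over 3709 bp. These are near-identical copies: 29.0% and 49.3% of the 100 bp words in their windows occurred once in the genome, and 71.0% of the words of Hist2h3c2 also occurred at Hist2h3c1. How tags were divided between such copies is not given in the sources used here, so their values are uncertain. The same holds for Hist2h2aa1, with 59.9% unique sequence and 40.1% of its words shared with Hist2h2aa2. The peak of Hist2h2aa1 passed the start by only 11 bp. In the Hist3 cluster, Hist3h2ba had 394 tags over 2643 bp with a fold enrichment of 8.61, and Hist3h2a had 532 tags over 3285 bp with 5.03.

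The 18 histone genes without an H3K4me3 peak were Hist1h1c, Hist1h2af, Hist1h2an, Hist1h2ao, Hist1h2ap, Hist2h2aa2, Hist1h2bb, Hist1h2bm, Hist1h2bp, Hist1h2bq, Hist1h2br, Hist1h3c, Hist1h3g, Hist1h4b, Hist1h4f, Hist1h4h, Hist1h4m and Hist1h4n. Their starts were 458 to 10504 bp from the nearest peak, with a median of 3083 bp. The nearest was Hist1h4n at 458 bp, with the peak beyond the end of the gene, and the farthest were Hist1h2bq at 10504 bp, Hist1h4h at 10462 bp and Hist1h2ao at 10236 bp. In 6 of them less than 50% of the window was unique: Hist1h2bq, Hist1h2ao, Hist1h2ap and Hist1h2br had no unique word, Hist1h4m had 7.67% and Hist1h4n 7.51%. These 6 genes lie in copied sequence, where 100% of the words of Hist1h2bq recurred at Hist1h2br and 92.3% of those of Hist1h4m at Hist1h4n. The other 12 had 58.3% to 97.0% unique sequence, with a median of 84.2%, against a median of 86.7% for the histone genes with a peak. The part of uniqueness in the absence of peaks was not tested. The spacers of the 3 divergent pairs without a peak are shown for comparison with those above, in the same orientation and with the same capitals.
Hist1h2an and Hist1h2bp, chr13:21787219-21787460: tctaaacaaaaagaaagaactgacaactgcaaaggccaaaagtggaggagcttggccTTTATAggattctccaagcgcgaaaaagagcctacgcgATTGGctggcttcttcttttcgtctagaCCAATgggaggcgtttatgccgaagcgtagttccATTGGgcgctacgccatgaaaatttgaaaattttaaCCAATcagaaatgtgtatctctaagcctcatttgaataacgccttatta
Hist1h2bq and Hist1h2ao, chr13:21810198-21810464: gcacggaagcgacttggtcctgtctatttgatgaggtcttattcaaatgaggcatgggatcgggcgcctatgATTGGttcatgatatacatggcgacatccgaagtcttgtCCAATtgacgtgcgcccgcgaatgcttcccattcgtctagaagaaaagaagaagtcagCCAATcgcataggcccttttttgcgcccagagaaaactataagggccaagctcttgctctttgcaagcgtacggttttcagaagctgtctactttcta
Hist1h2ap and Hist1h2br, chr13:21833508-21833742: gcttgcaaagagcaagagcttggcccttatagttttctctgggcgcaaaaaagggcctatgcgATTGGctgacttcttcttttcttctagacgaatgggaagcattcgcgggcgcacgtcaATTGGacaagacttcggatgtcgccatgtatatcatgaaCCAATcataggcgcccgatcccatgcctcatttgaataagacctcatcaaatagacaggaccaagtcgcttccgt

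These spacers held 3 or 4 CCAAT matches each, no ATTTGCAT, and a TATAAA match in 1 of 3. The spacers of Hist1h2bq with Hist1h2ao and of Hist1h2ap with Hist1h2br are copies on opposite strands, so the 3 are not independent. Spacers of 5 of the 10 pairs with a peak also had no ATTTGCAT, and those of 3 of the 10 had no TATAAA. Promoters, taken as 250 bp before and 50 bp after each start, were then searched for 5 motifs on both strands. CCAAT was found in 56 of 67 histone promoters (83.6%), against 39.0% of all protein-coding promoters, and TATAAA in 37 (55.2%), against 12.6%. ATTTGCAT was found in 15 (22.4%), against 1.57%, namely in 7 of 18 H2A and 8 of 18 H2B promoters and in no H1, H3 or H4 promoter. GGGCGG, the GC box, was found in 28 (41.8%), against 43.0%, with 10 of 13 H4 promoters among them. AAACACA, the H1 box, was found in 9 (13.4%), against 6.41%, with 4 of 6 H1 promoters among them. CCAAT was in all 18 H2A and all 18 H2B promoters, but in 4 of 13 H4 promoters. The promoters of a divergent pair overlap, so that 1 match can count for both genes.

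By presence of a peak, TATAAA was found in 31 of 49 histone promoters with a peak (63.3%) and 6 of 18 without (33.3%), CCAAT in 43 of 49 (87.8%) and 13 of 18 (72.2%), and ATTTGCAT in 13 of 49 (26.5%) and 2 of 18 (11.1%). Copies such as Hist1h4m and Hist1h4n count as separate genes in these shares and in the medians that follow. The observed to expected CpG ratio of the promoter had a median of 0.68 with a peak and 0.90 without. Over all protein-coding genes these medians were 0.67 and 0.14. Histone genes without a peak therefore did not have the low CpG ratio that other genes without a peak had, while their median GC content was 46.5%, against 45.0% for histone genes with a peak, 44.3% for all genes without a peak and 58.3% for all genes with a peak.

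An ASH2L peak was found at 1 of 67 histone genes (1.49%, 0.264% to 7.98%), against 2197 of 21951 protein-coding genes (10%), and against 6.82% in the fixed window. Of the 1543 other genes of at most 2000 bp, 57 had an ASH2L peak (3.69%, and 3.56% in the fixed window), which lies inside the interval of the histone genes. An ASH2L peak together with an H3K4me3 peak was likewise found at this 1 gene, against 9.81% of all genes. At a score of 100 or more, both counts were 0 at histone genes, against 1.06% of all genes with an ASH2L peak and 1.01% with both. Among genes with the start inside an H3K4me3 peak, 1 of 46 histone genes had an ASH2L peak in the fixed window (2.17%, 0.385% to 11.3%), against 10.5% of 13675 other genes and 45 of 423 other genes of at most 2000 bp (10.6%, 8.05% to 13.9%). The interval for the histone genes reaches these values, and a lower share was thus not shown at this number of genes. Since neighbouring genes share peaks, the 46 genes are also fewer than 46 independent places. The other 66 histone genes were 56287 to 1590708 bp from the nearest ASH2L peak. The median distance was 159845 bp for them and 218242 bp over all protein-coding genes.

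The gene with the ASH2L peak was Hist4h4, the only gene of its cluster, whose sequence upstream is shown because it is the only histone gene with a peak in both lists. The ASH2L peak at chr6:136803918-136804380 was 463 bp wide and held 21 tags, with a fold enrichment of 6.29 and a score of 60.01. It lay inside the gene, ended 35 bp from the start and had its summit 340 bp from it. In the ASH2L list its tag number stood at the 9.94th percentile, its score at the 45.7th and its fold enrichment at the 82.1st. The H3K4me3 peak there, chr6:136802893-136805399, held 440 tags over 2507 bp, with a fold enrichment of 4.06. The 250 bp upstream of Hist4h4 are given on its own strand (minus), and held no TATA box, CCAAT box or octamer motif in these letters.
Hist4h4 upstream, chr6:136804416-136804665: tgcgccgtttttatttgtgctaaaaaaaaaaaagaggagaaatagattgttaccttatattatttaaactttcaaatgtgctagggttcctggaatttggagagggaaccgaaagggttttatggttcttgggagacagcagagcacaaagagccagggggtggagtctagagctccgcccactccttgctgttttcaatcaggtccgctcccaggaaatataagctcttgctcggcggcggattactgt

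Other genes of histone supply were read in the same way. Over all protein-coding genes, 74.5% had an H3K4me3 peak, 62.5% had it over the start and 10% had an ASH2L peak. Replication-independent histone genes were taken as 17 variant and linker histone genes outside the replication-dependent set. Of these, 12 had an H3K4me3 peak, in each over the start (70.6%, 46.9% to 86.7%), and H1foo, H2afb1, H2afb2, H2afb3 and Hils1 had none. Medians of the 12 peaks were 3821 bp in width, 163 tags per 1000 bp, 4.83 in fold enrichment and 313.35 in score, the last close to the 317.60 of the replication-dependent genes. H2afx, for the DNA damage variant, had 1155 tags over 6257 bp and a fold enrichment of 3.34, and H2afy alone had an ASH2L peak (34 tags, fold enrichment 4.26). Of 20 genes for histone gene transcription and 3′ end processing, 19 had an H3K4me3 peak (95%, 76.4% to 99.1%) and Ccne1, for cyclin E1, had none. Npat, for the organizer of the histone locus body, had 815 tags over 3988 bp, and Slbp, for the stem-loop binding protein, had 754 tags over 3619 bp. ASH2L peaks lay at Casp8ap2 (26 tags), Ccne2 (34 tags) and Cpsf2 (41 tags). Of 18 histone chaperone genes, 16 had an H3K4me3 peak (88.9%, 67.2% to 96.9%), Daxx and Nap1l1 had none, and ASH2L peaks lay at Cabin1 (27 tags), Hira (54 tags) and Hjurp (71 tags). ASH2L peaks were thus at 5.88%, 15% and 16.7% of the genes of these lists, on 1, 3 and 3 genes.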

How the data were processed

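H3K4me3 and HA-ASH2L were profiled by CUT&RUN. According to the methods, the authors trimmed reads, mapped them to mm10 with Bowtie2, merged duplicates and used MACS for peak calling, with 1e-05 as the p-value limit. The file headers name MACS 1.4.3, no control, 1 tag kept per position, and tag sizes of 142 bp (H3K4me3) and 151 bp (ASH2L), which exceed the fragment size limit of the methods. The submitters' processing notes also list SAMtools 1.5, HOMER 4.10 and bedtools. Tags per peak were deposited as raw counts of the merged libraries. The fold enrichment that the authors deposited is a ratio of summit tags to modelled local background. The deposited score is 10 times −log10 of the p-value. The headers give 39669806 H3K4me3 tags (27328071 after removal of redundant tags) and 26545897 ASH2L tags (25677963).

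Peaks were set against GENCODE vM21 genes on GRCm38 by overlap. Uniqueness was the share of 100 bp words of a gene's window that occur once in the genome on both strands. Wilson intervals cover counting error only. No test over samples was possible. Members and gene lists were chosen with earlier results of these data known. Named were all genes of Hist2, Hist3 and Hist4, genes without an H3K4me3 peak, with an ASH2L peak, in the 3 peaks with most members, at the extremes of tag density per type or under 50% unique, and, of other lists, genes without an H3K4me3 peak or with an ASH2L peak. Hist1h1a, Hist1h1b, Hist1h1e, Hist1h2ac, Hist1h2bc, Hist1h2be, Hist1h3e, Hist1h3i, Hist1h4c, Hist1h4d, Hist1h4j, H2afx, Npat, Slbp and others in shared peaks were named after their values were seen. Overlap and uniqueness steps were tested on simulated data, and motif searches were not. Promoter sequences were read from the genome, and 62 of 67 genes also matched the RefSeq promoter table. The 21 symbols listed for transcription and processing stand for 20 genes, since Ars2 is an older symbol of Srrt. Python 3.11.15, numpy 2.4.6 and pandas 2.3.3 were used.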

Additional observations from a re-analysis of the deposited data

How the results depend on the processing

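For 11 results, 84 alternative values were computed, and 71 stayed within 1.5 times the value reported. The other 13 came from stricter peak lists. With only peaks at or above the list's median fold enrichment, 5 histone genes had an H3K4me3 peak, 5 start sites lay inside a peak, 4 distinct peaks remained with at most 2 genes each, 1 peak was shared, the median width was 2408 bp and the median fold enrichment 7.95, no gene (0) had both kinds of peak, and the median share of the window covered was 0%. This follows from the construction, since 25 of 29 peaks lie below that median. With only peaks of score 100 or more, 33 genes kept an H3K4me3 peak (49.3%, against 71.8% of all protein-coding genes) in 21 peaks, but the peak with 5 genes dropped out and at most 3 genes shared a peak. The ASH2L peak of Hist4h4 was lost, leaving 0 genes with ASH2L and 0 with both, and the median share of the window covered was 0%. A window from 2500 bp upstream gave 52 genes and 31 peaks, and without genes under 50% unique the count was 47 of 59. The window of the shortest coding transcript was chosen after seeing the data. No paired analysis was possible because the deposited lists pool the duplicates of each group, and for the same reason no replicate could be left out. The ASH2L peak of Hist4h4 rests on 21 tags.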
